A study of Homo sapiens with 6 samples.

Results

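Broad stop codon peaks were the m6A peaks that covered at least 1000 bases and whose annotation included a stop codon and not the 5′ UTR. They were chosen by 2 deposited values of each peak, its annotated transcript parts and the summed size of its blocks, so neither of these is a finding here. The annotation names no transcript, and a gene can hold several such peaks. The annotated stop codon thus need not be the same for all peaks of a gene. The rule gave 2028 of 15272 peaks in the control list, 1385 of 13147 with DF2 siRNA 1 and 1660 of 13310 with DF2 siRNA 2, or 5073 of 41729 peaks in all. Stop codon peaks of the same annotation under 1000 bases, called narrow here, numbered 3266, 3210 and 3044.

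The cells were U2OS, an established human osteosarcoma line that the labels give as wild type and class as epithelial. They had received an siRNA used as control, or 1 of the siRNAs against the m6A reader YTHDF2, which the labels name DF2 siRNA 1 and DF2 siRNA 2. Cytoplasmic RNA was cut to fragments of about 100 nt, pulled down with an anti-m6A antibody (m6A-IP) and sequenced beside input RNA that was not pulled down, with 1 m6A-IP and 1 input sample per condition. The deposited data were 1 peak list per condition, marked as merged from r1 and r2, although the labels hold 1 pair of samples each. With no replicates no SD exists and no difference was tested, and the intervals in parentheses are 95% exact binomial (Clopper-Pearson) intervals that cover counting error only. Both siRNA lists are set against the same control list, and the labels name no time or dose.

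N6-methyladenosine (m6A) is the commonest internal mark of messenger RNA. A nuclear writer complex built on METTL3 and METTL14, with WTAP, VIRMA, CBLL1 and RBM15 or RBM15B as partners, places it within short sequence contexts that include GGACT, and it gathers near stop codons and in long last exons. Cytoplasmic YTH domain proteins read the mark, and YTHDF2 brings bound messenger RNA to the CCR4-NOT deadenylase and so to decay. A peak in such data is a stretch where immunoprecipitated fragments outnumber input, so a wide peak can hold several methylated adenosines that fragments cannot separate.

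To show what such a peak looks like in sequence, the stretches below are parts of broad stop codon peaks that RefSeq's windows around gene starts (GRCh38.p14) happen to hold, since the start of another gene lies inside or close to them. Capitals mark the GGACT context with its central adenosine, on the strand of the peak, 5′ to 3′. The first 6 lie in peaks that all 3 lists held as broad stop codon peaks, and they are shown because 3 matches stand close together in TMEM79 and 2 in ITIH4. The TMEM79 matches (chromosome 1, plus strand) span 21 bases each at 156291533 to 156291553, 156291667 to 156291687 and 156291725 to 156291745. Those of ITIH4 (chromosome 3, minus strand) lie at 52823838 to 52823858 and 52823730 to 52823750, and that of YEATS2 (chromosome 3, plus strand) at 183810527 to 183810547.
TMEM79 first: agccgcctGGACTacccggac
TMEM79 second: ccaggcctGGACTtcgccccc
TMEM79 last: cccaacagGGACTccaatcaa
ITIH4 first: atccatgaGGACTcagactct
ITIH4 second: accctgcaGGACTtctaccag
YEATS2: ccttttctGGACTtcctcaca
The next pair differs in the lists that held the peak as broad: PRKAA1 (chromosome 5, minus strand, 40762986 to 40763006) in control alone and CACFD1 (chromosome 9, plus strand, 133468709 to 133468729) in both siRNA lists.
PRKAA1: caaatcagGGACTgctactcc
CACFD1: tgaggcctGGACTgtccacgc

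The readable stretches were few, 38 windows with at least 30 shared bases, and held 0.165% of the bases under control broad stop codon peaks, 0.182% with siRNA 1 and 0.180% with siRNA 2. On the peak strand they held 2.00, 1.98 and 2.08 GGACT matches per kb in the 3 lists, from 10, 7 and 9 matches, against 0.991 per kb of 1 strand over all 35116 RefSeq windows. Most of these matches are the same sites held by all 3 lists, so the 3 rates are not separate observations. The rate over all windows counts both strands around gene starts, an unlike set of bases, and the difference was not tested. The matches common to all 3 lists lie mostly in TMEM79 and ITIH4, so the rates rest on few windows. Of all windows, 25.3% held GGACT on the gene's strand and 44.2% on either strand. No such share was worked out for the readable windows, so the rates per kb do not show that the motif is more frequent in these peaks. A match is a run of letters and not a measured site, and peaks wider than the fragments do not say which adenosine was marked.

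Broad stop codon peaks were 13.3% of control peaks (12.7 to 13.8), 10.53% with siRNA 1 (10.01 to 11.1) and 12.5% with siRNA 2 (11.9 to 13.05). They made up 38.3% (37.0 to 39.6) of control stop codon peaks without 5′ UTR, 30.1% (28.8 to 31.5) with siRNA 1 and 35.3% (33.9 to 36.7) with siRNA 2. By each of these measures the control list had the most and siRNA 1 the fewest. All control peaks together covered 12.1 Mb, siRNA 1 peaks 9.12 Mb and siRNA 2 peaks 10.1 Mb, and the median of the authors' score over all peaks was 158, 33 and 99. These values run in the same order as the number of broad stop codon peaks, and their part in it was not tested. Of the covered bases, 25.05%, 21.3% and 23.8% lay in broad stop codon peaks.

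**Figure D1:**
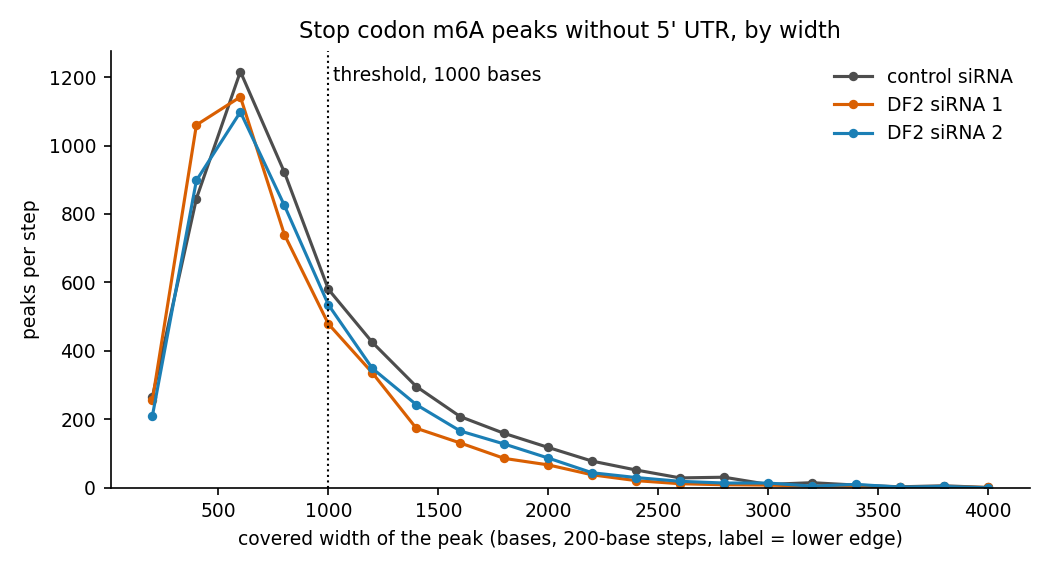
Number of stop codon peaks without 5′ UTR (y axis) in 200-base steps of covered width (x axis, bases, up to 4000) in the 3 lists, with the threshold of 1000 bases as a dotted line. All 3 curves are highest at 600 bases, and from 800 bases up to 2800 bases the control curve lies above both others, with 580 peaks in the step at 1000 bases against 479 with siRNA 1 and 535 with siRNA 2.

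The curve of peak widths has no gap at 1000 bases, so the threshold cuts through a continuous distribution. Just inside it, at 1000 bases, the highest control scores belonged to CTSZ (cathepsin Z), IER2 (an immediate-early gene) and MESDC2. The widest control peak below it, at 996 bases, was that of QPCTL, which covered 600 bases in both siRNA lists. Members had a median width of 1400 bases in control and 1200 bases in each siRNA list, and 360 control members reached 2000 bases. Coding sequence and 3′ UTR were both annotated in 94.0% of control members, 93.0% with siRNA 1 and 93.6% with siRNA 2. Members lay in a single stretch of genome, without an intron, in 43.8% (41.7 to 46.0) of control, 51.6% (49.0 to 54.3) of siRNA 1 and 50.4% (47.9 to 52.8) of siRNA 2 cases. Among narrow stop codon peaks these shares were 51.3%, 60.5% and 57.3%. An unbroken stretch of at least 800 bases was found in 91.4%, 92.7% and 92.7% of members.

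Genes with a broad stop codon peak numbered 1946 of 9597 genes with a peak in control (20.3%), 1357 of 8399 with siRNA 1 (16.2%) and 1620 of 8590 with siRNA 2 (18.9%). Most held 1, while 81, 28 and 40 genes held several, and NSD1, a histone methyltransferase, held 3 in control. These genes carried further peaks more often than genes with a narrow stop codon peak. At least 2 peaks were found in 58.5% (56.3 to 60.7) of control member genes against 46.4% (44.6 to 48.3), in 56.7% against 48.5% with siRNA 1 and in 53.8% against 46.4% with siRNA 2. Their median span in RefSeq was 39458 bases in control, 33578 with siRNA 1 and 35302 with siRNA 2, against 35822, 31272 and 32996 bases for genes with a narrow peak.

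Nearly every broad stop codon peak had a counterpart of some kind in the other lists. Of control members, 119 (5.87%) overlapped no siRNA 1 peak and 73 (3.60%) no siRNA 2 peak, where 32.9% and 26.6% of all control peaks had none. Neither siRNA list had a peak over 42 control members (2.07%, 1.497 to 2.79), against 22.3% of all control peaks and 19.2% of narrow stop codon peaks. In the other direction, 19 siRNA 1 members (1.37%) and 29 siRNA 2 members (1.75%) overlapped no control peak, where 18.5% and 13.9% of all peaks did. Only 3 siRNA 1 members and 10 siRNA 2 members had no overlap in either other list, against 10.8% and 6.51% of all peaks. Between the siRNA lists, 6 of the siRNA 1 members had no siRNA 2 peak and 36 of the siRNA 2 members no siRNA 1 peak, beside 16.4% and 19.5% of all peaks. Members are wider than other peaks by the rule, and the part of width in these shares was not tested.

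Whether the counterpart was itself broad was another matter. A broad stop codon peak of siRNA 1 lay over 54.1% of control members, and a broad one of siRNA 2 over 65.7%. Read from the siRNA lists, 79.1% of siRNA 1 members and 79.9% of siRNA 2 members overlapped a control member. Between the siRNA lists the shares were 84.2% of siRNA 1 members and 70.1% of siRNA 2 members. Where the widest counterpart of a control member was not broad, it was most often a narrow stop codon peak, in 441 cases (21.7%) with siRNA 1 and 361 (17.8%) with siRNA 2. It covered coding sequence alone in 136 and 80 cases, and 3′ UTR alone in 109 and 89. More than 1 siRNA 1 peak lay under 323 control members (15.9%, 14.4 to 17.6), and more than 1 siRNA 2 peak under 263 (12.97%, 11.5 to 14.5). In reverse, 141 siRNA 1 members (10.2%) and 175 siRNA 2 members (10.54%) lay over several control peaks.

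Joined across the lists, the members formed 2459 regions, of which 2261 (91.9%) had some peak in every list. All 3 lists held a broad stop codon peak in 983 regions (40.0%). Control alone held one in 601 (24.4%), both siRNA lists without control in 164 (6.67%), control with siRNA 2 in 326 and control with siRNA 1 in 95. The siRNA 1 list alone held 123 and the siRNA 2 list alone 167. In 239 of the control-only regions both siRNA lists had a narrow stop codon peak, and in 42 neither had any peak. In the 164 regions broad with both siRNAs, the control list had a narrow stop codon peak in 66, a peak that also reached the 5′ UTR in 41, 3′ UTR alone in 23, coding sequence alone in 16 and no peak in 7. Regions of all 3 lists stood higher by score in control, at a median percentile of 83.3, than control-only regions, at 62.0.

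**Figure D2:**
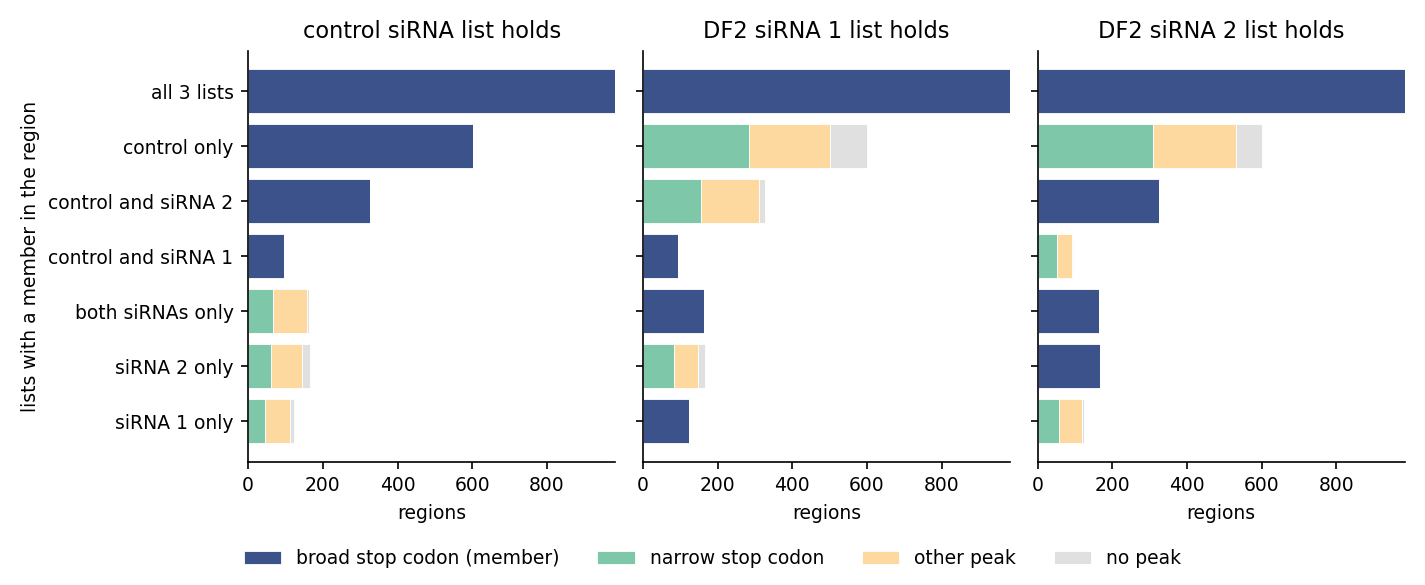
Number of regions (x axis) by the lists that held a broad stop codon peak there (rows), with what each of the 3 lists held in the same regions (panels, colours). In the 601 control-only regions the siRNA lists mostly held a narrower stop codon peak or another peak, with no peak in 101 (siRNA 1) and 71 (siRNA 2).

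Since control members are chosen for their width in control, their widths elsewhere are bound to look smaller. Widths were therefore compared over the 3162 stop codon regions that had exactly 1 stop codon peak without 5′ UTR in each list, broad or narrow. Their mean width was 999 bases in control, 874 with siRNA 1 and 931 with siRNA 2, and the median was 800 bases in each list. The median difference from control was 0 bases with each siRNA (quartiles -200 and 0). Against control, the siRNA 1 peak was narrower by at least 200 bases, the usual step, in 41.7% of these regions and wider in 12.8%. With siRNA 2 it was narrower in 32.8% and wider in 15.1%. The siRNA lists differed from each other in the same way, the siRNA 1 peak being narrower in 26.6% and wider in 12.3%. Both siRNA peaks were narrower in 914 regions (28.9%) and wider in 257 (8.13%), 1 was narrower and the other wider in 65, and 1054 regions (33.3%) had the same width in all 3 lists. A broad control peak stood beside a narrow siRNA 1 peak in 414 regions and a narrow siRNA 2 peak in 299, while the reverse held in 115 and 123.

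The difference lay more often at the 3′ end of the peak. Control peaks reached farther 3′ than siRNA 1 peaks in 35.8% of the regions and farther 5′ in 21.8%, where siRNA 1 peaks reached farther in 7.08% and 9.84%. Against siRNA 2 the control peak reached farther 3′ in 27.9% and farther 5′ in 16.1%, and the siRNA 2 peak in 8.60% and 10.4%. The 5′ ends were identical in 68.4% and 73.5% of regions, and the 3′ ends in 57.1% and 63.5%.

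Grouping regions by control width uses the value that is compared, so the shares below are a description, and the reverse choice is given beside them. Among the 1392 regions of at least 1000 bases in control, siRNA 1 was narrower in 58.1% and wider in 10.1%, and siRNA 2 narrower in 48.1% and wider in 11.4%. Taking instead the 1093 regions broad with siRNA 1, the control peak was narrower in 23.1% and wider in 36.1%. For the 1216 regions broad with siRNA 2, control was narrower in 23.2% and wider in 30.5%. At 2000 bases or more the direction turned, control being narrower in 40.8% and wider in 30.3% of regions chosen by siRNA 1 width, and narrower in 39.1% and wider in 29.0% of those chosen by siRNA 2 width.

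**Figure D3:**
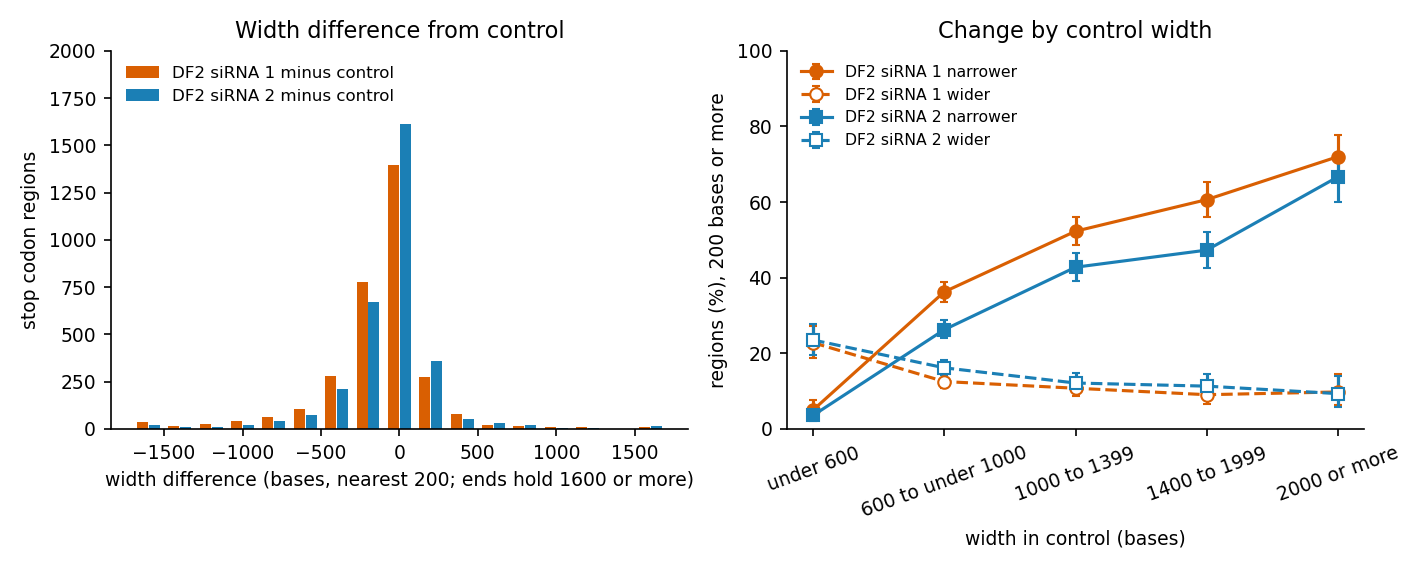
Left, number of the 3162 one-to-one stop codon regions (y axis) by siRNA minus control width (x axis, bases, nearest 200, with the outermost bars holding 1600 or more). Right, share of regions narrower (filled) or wider (open) by at least 200 bases than control, with 95% exact binomial intervals, by control width: at 2000 bases or more 72.0% were narrower with siRNA 1 and 66.7% with siRNA 2, and under 600 bases 4.99% and 3.56%. The groups are set by the control width itself, and regions chosen at 2000 bases or more in an siRNA list were narrower in control in 40.8% (siRNA 1) and 39.1% (siRNA 2).

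Some of the widest regions held by all 3 lists did not differ at all in extent. ANKRD11, a chromatin cofactor, had the same 4600 bases in every list, on the minus strand of chromosome 16 from 89281254 to 89286242 (hg38). SH3PXD2A (an adaptor of invadopodia) and SOGA1 likewise had identical peaks of 4200 bases. The authors' fold enrichment of the ANKRD11 peak was 39.2 in control, 115 with siRNA 1 and 68.0 with siRNA 2, which are values within each list. ZBED1, at 3400 bases, and LGALS3BP, at 1400 bases, also did not differ in width, and both stood above percentile 99 by score in every list.

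Other genes had a wider stop codon peak in the siRNA lists. PLEC, the cytolinker plectin, measured 5000 bases in control, 7191 with siRNA 1 and 6200 with siRNA 2, and AHNAK, a giant scaffold protein, 3200, 8200 and 5800 bases. The control list held a neighbouring peak in each case. In AHNAK a coding peak of 9800 bases lay next to the control peak, so that 13000 bases were covered in control, 8200 with siRNA 1 and 13000 with siRNA 2. ASXL1, a Polycomb group gene, measured 1800 bases in control and 4400 in both siRNA lists, and with its separate coding peak of 2200 bases control covered 4000. In PLEC the neighbouring control peak, of 1000 bases, was itself a broad stop codon peak. The control peak of 5000 bases was annotated without 3′ UTR, and the siRNA peaks of 7191 and 6200 bases with it. The summed coverage of PLEC was 6000 bases in control, 7191 with siRNA 1 and 6791 with siRNA 2. Thus the width of these peaks depends in part on where neighbouring stretches were split.

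The opposite case was a long control peak with several short ones beneath it. ZDBF2, an imprinted zinc finger gene, had the widest control member, 7000 bases on the plus strand of chromosome 2 from 206297346 to 206311688, with a score at percentile 47.4. Each siRNA list held 6 peaks in the same stretch that together covered 4000 bases, and in each the stop codon peak measured 600. ZNF292 had 6000 bases in control, while siRNA 1 held 4 peaks and siRNA 2 held 3, covering 1600 bases each. KIAA2026 covered 3800 bases in control, 800 in 2 peaks with siRNA 1 and 2200 in 3 peaks with siRNA 2. PEAK1, a pseudokinase, covered 3200, 1400 and 1200 bases. In these 4 genes the summed coverage was lower in both siRNA lists, and not the widest peak alone. These genes were chosen for the largest narrowing in both siRNA lists, so lower coverage is in part set by the choice.

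**Figure D4:**
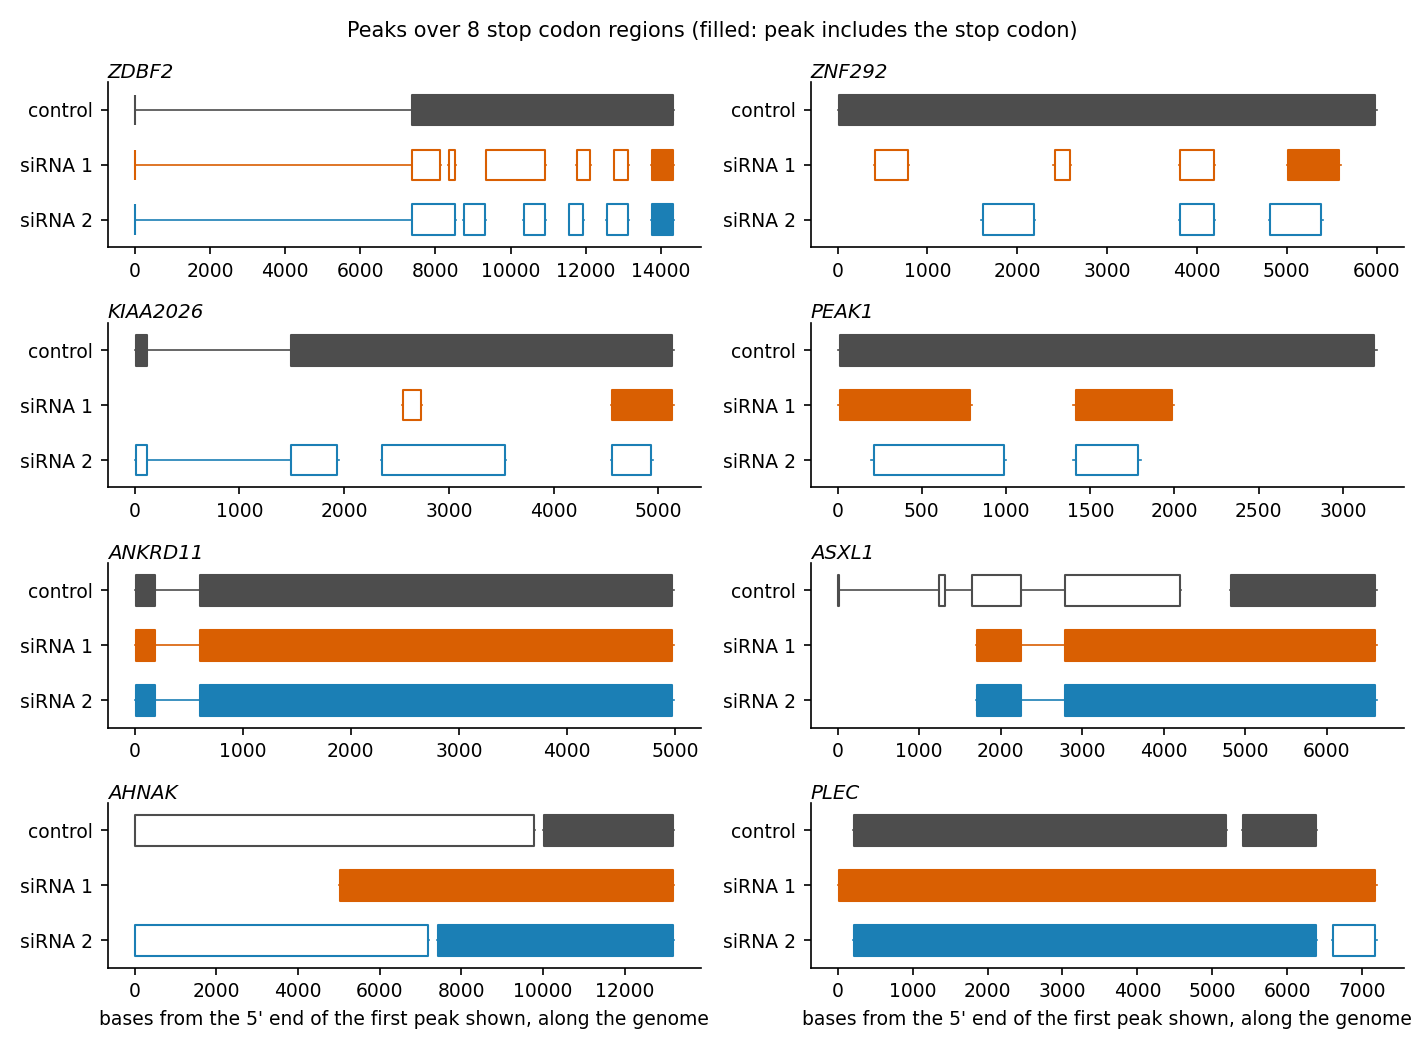
Peaks of 8 genes in the 3 lists, drawn along the genome in the direction of transcription (x axis, bases from the 5′ end of the first peak shown, introns as thin lines), with filled boxes for peaks that include a stop codon. ZDBF2, ZNF292, KIAA2026 and PEAK1 show a single long control peak over separate short siRNA peaks, ANKRD11 is identical in all lists, and ASXL1, AHNAK and PLEC are split in control where siRNA 1 has a single peak.

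In the other genes chosen for the largest narrowing, splitting and lower summed coverage went together to different degrees. Under the control peak of ATRX, a chromatin remodeller, of 3800 bases, siRNA 1 held 3 peaks with 2600 bases in all and siRNA 2 held 2 with 2200, both of them broad stop codon peaks. ALMS1, a centrosomal gene, had 5200 bases in control, 3600 in 5 peaks with siRNA 1 and 4600 in 2 peaks with siRNA 2. DSP, which encodes the desmosomal protein desmoplakin, had 4600 bases in control, 4200 in 3 peaks with siRNA 1 and 4000 in 2 peaks with siRNA 2. SFMBT2, a Polycomb group gene, had 4000 bases in control and 3200 in 3 peaks with each siRNA.

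Control members with no peak in either siRNA list all stood below the median score percentile of control members, 76.1. Their 10 highest scores ran from percentile 71.0 down to 52.5, and the rest stood no higher. The highest scores among the 42 were those of METTL9 (a histidine methyltransferase), at percentile 71.0, and DPH3 (diphthamide synthesis), at 66.6. ESCO2, a cohesin acetyltransferase, stood at 65.3, ETAA1, an activator of the ATR kinase, at 59.8, and PPARGC1A, a coactivator of mitochondrial genes, at 53.0. METTL9 covered 1000 bases and DPH3 1200 bases. The lists give no RNA level, so less methylation and less RNA of a transcript cannot be told apart.

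Regions broad with each siRNA but not in control included strong peaks. GALNT2, a glycosyltransferase, stood above percentile 99 in every list, with 800 bases in control and 1000 in both siRNA lists. CELSR2, a receptor of the cadherin family, measured 800 bases of 3′ UTR in control and 1600 bases including the stop codon with both siRNAs. MBD3, a NuRD subunit, had 2200 bases of 3′ UTR in control and 2400 in both siRNA lists, with the stop codon included there. DENND5B had a control peak of 2000 bases that reached the 5′ UTR and so fell outside the rule. A step of 200 bases, or a change in the annotated parts, is thus enough to enter or leave the group.

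By strength, broad stop codon peaks stood above narrow ones. Their median fold enrichment, by the authors' values, was 44.2 in control, 41.7 with siRNA 1 and 43.8 with siRNA 2, against 20.3, 17.4 and 20.03 for narrow stop codon peaks. Median score percentiles were 76.1, 78.8 and 75.6, against 63.1, 58.5 and 60.5. Over all stop codon peaks without 5′ UTR, the rank correlation (Spearman) of width with fold was 0.644 in control (n = 5294), 0.566 with siRNA 1 (n = 4595) and 0.594 with siRNA 2 (n = 4704). Among members alone it was 0.194, 0.266 and 0.256. These are correlations across peaks of 1 library pair, which share depth and background, and carry no test. The highest scores common to all lists were those of CTSZ, IER2, BMP2 (a bone morphogenetic protein), LGALS3BP, ZBED1, EIF3A (a translation initiation factor), IER5L, NFIC, FKBP10 and FURIN (a proprotein protease). CTSZ, at the top, covered 1000, 1200 and 1000 bases, and IER2 1000, 1400 and 1200.

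Groups of genes differed in how often they carried a broad stop codon peak. Their shares, among genes with any peak, are read beside 20.3%, 16.2% and 18.9% over all genes in control, siRNA 1 and siRNA 2.

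**Figure D5:**
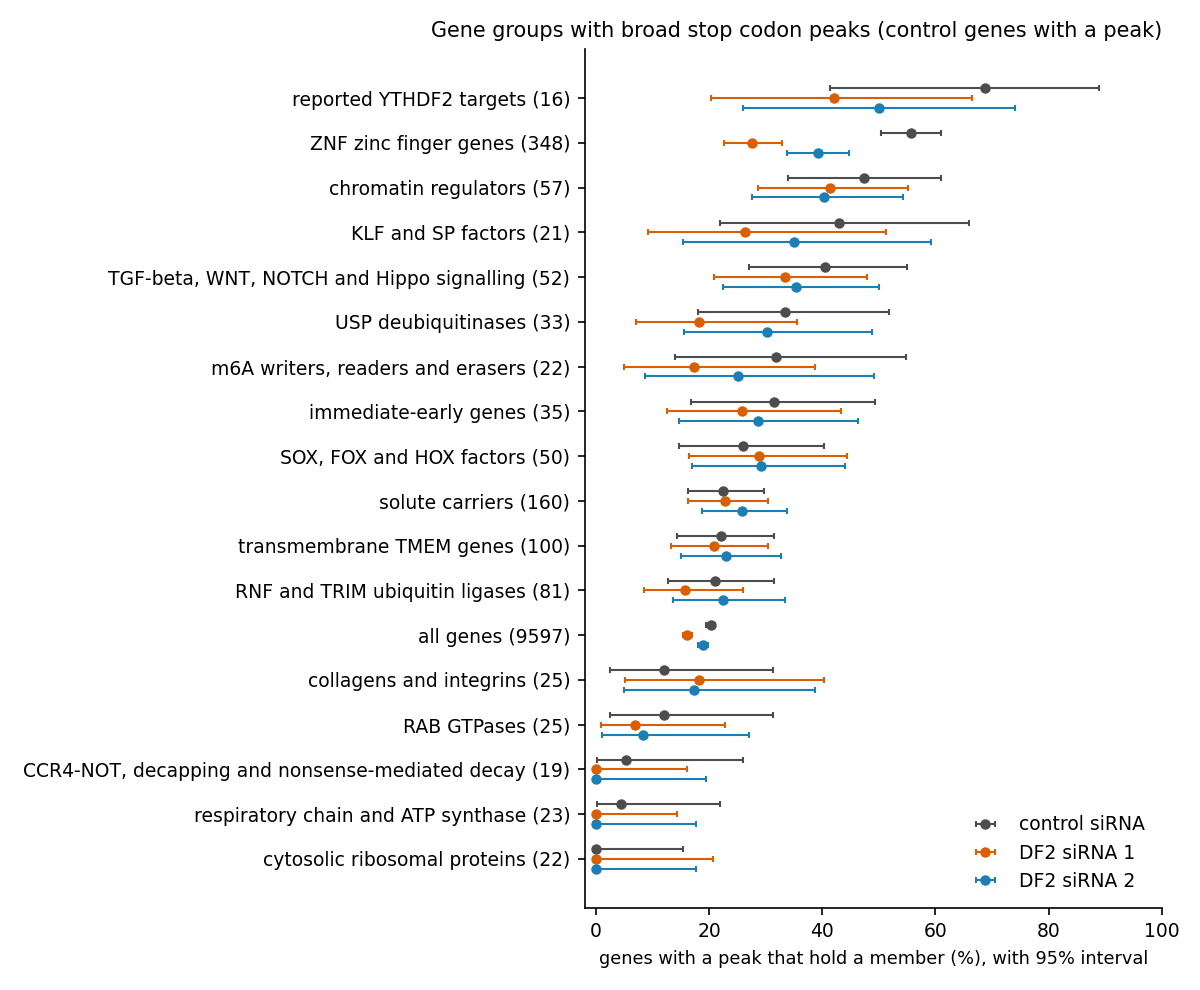
Share of genes with a peak that held a broad stop codon peak (x axis, percent, with 95% exact binomial intervals) for gene groups with at least 15 such genes in control (rows, with the number of control genes with a peak), in the 3 lists. ZNF genes have intervals that do not overlap between control and either siRNA, at 55.7% against 27.5% and 39.1%, while ribosomal protein genes are at 0 in every list.

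Chromatin regulators carried them often, at 27 of 57 genes in control (47.4%, 34.0 to 61.0), 24 of 58 with siRNA 1 (41.4%) and 23 of 57 with siRNA 2 (40.4%). In all 3 lists 20 of them held a member, among them ARID1A, ARID1B, ASXL1, BRD3 and CHD2, and the histone acetyltransferases CREBBP and EP300. ARID1A, a subunit of the BAF remodeller, covered 2000 bases in every list, and BRD3, a bromodomain protein, 1400. CREBBP covered 2200, 2200 and 2000 bases, and EP300 2200, 2200 and 2400. Control alone held a broad peak in CHD1, SMARCA2 and TET1. CHD1, a remodeller, had 1200 bases in control and 600 in both siRNA lists.

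Genes of the TGF-beta, WNT, NOTCH and Hippo pathways stood at 40.4% (21 of 52), 33.3% (17 of 51) and 35.3% (18 of 51), with 12 in all 3 lists. The frizzled receptors FZD4 and FZD5 had 1800 and 1200 bases in every list, and AMOTL2, an inhibitor of YAP1, 1800. Control alone held ACVR2A, FZD6, MAML2, TGFB2 and YAP1. The Hippo effector YAP1 covered 1000 bases in control and 600 in both siRNA lists, and the ligand TGFB2 1200 and then 400 in both. The Hippo kinase LATS2 differed in the other direction, with a stop codon peak of 800 bases and a coding peak of 1600 in control, against single peaks of 2800 bases with siRNA 1 and 3000 with siRNA 2.

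Genes of the m6A pathway itself carried such peaks. Of those with a peak, 7 of 22 held a broad stop codon peak in control (31.8%, 13.9 to 54.9), 4 of 23 with siRNA 1 and 5 of 20 with siRNA 2. METTL16, RBM15B and YTHDF3 did so in all 3 lists. RBM15B, a writer complex partner, covered 3000, 2600 and 3000 bases, and the reader YTHDF3 1600 in each. The writer subunits METTL14, WTAP, CBLL1 and KIAA1429 (VIRMA) were broad in control alone. METTL14 covered 1400 bases in control, 600 with siRNA 1 and 800 with siRNA 2, and CBLL1 1200, 400 and 600. KIAA1429 covered 1200 and then 800 in both, and WTAP 1000 in control, 800 with siRNA 1 and 600 with siRNA 2. With siRNA 2, WTAP also had a narrow stop codon peak of 800 bases that did not overlap this control peak. That peak stood at percentile 92.5 by score, and the control peak at 78.3. YTHDF2, the siRNA target, held a broad stop codon peak with each siRNA but none in control, where its peak of 2000 bases also reached the 5′ UTR. It covered 1600 bases in both siRNA lists. Its score stood at percentile 99.1 in control, 84.3 with siRNA 1 and 66.6 with siRNA 2. No list measures YTHDF2 RNA, so the knockdown could not be checked here.

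Genes reported elsewhere as YTHDF2 targets stood at 11 of 16 in control (68.8%, 41.3 to 89.0), 8 of 19 with siRNA 1 (42.1%, 20.3 to 66.5) and 9 of 18 with siRNA 2 (interval 26.0 to 73.98%). Those in all lists included CREBBP, EGFR, EP300, FAM83D and KLF4. EGFR, a growth factor receptor, covered 1400 bases in each list, and KLF4, a transcription factor, 1800, 1800 and 2000. The transcription factor MYC covered 1000, 600 and 800 bases at percentiles 99.7, 98.8 and 99.1, and the kinase MAP2K4 1000 and then 800 in both siRNA lists.

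Immediate-early genes, which serum and stress switch on within minutes, stood at 11, 9 and 10 of 35. FOSL2 covered 1400, 1600 and 1600 bases, JUND 1000, 1200 and 1000, and FOS 1000 in each list. The orphan receptor NR4A3 had 1000 bases in control and 800 in both siRNA lists, whereas the phosphatase DUSP4 had 600 and then 1200 in both.

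Shares for solute carriers were close in the 3 lists. Broad stop codon peaks were found in 36 of 160 genes in control (22.5%, 16.3 to 29.8), 33 of 145 with siRNA 1 (22.8%, 16.2 to 30.5) and 36 of 140 with siRNA 2 (25.7%, 18.7 to 33.8), with intervals that overlap. Their order depended on the rule: by genomic span it was 41.2%, 33.8% and 38.6%, and at 800 bases 34.4%, 32.4% and 38.6%. In 21 genes all 3 lists held one, among them SLC16A1, a monocarboxylate transporter, with 1400 bases in each. Those broad with both siRNAs and not in control included SLC19A1, SLC25A44 and SLC26A2, and control alone held SLC25A30 and SLC35E3. Over their 71 one-to-one regions, the mean width was 897 bases in control, 861 with siRNA 1 and 892 with siRNA 2.

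At the other end stood genes of the basic machinery of the cell. No cytosolic ribosomal protein gene held a broad stop codon peak, of 22, 16 and 19 with a peak (at most 15.4%, 20.6% and 17.6% by the interval). NDUFV3 was the only gene of the respiratory chain and ATP synthase, 1 of 23 in control and 0 of 24 and 19 with the siRNAs. Among CCR4-NOT, decapping and nonsense-mediated decay genes, DDX6 was the only one, 1 of 19 in control and 0 of 21 and 17. DDX6, a helicase of the decapping complex, covered 1000 bases in control and 800 in each siRNA list. RAB GTPases stood at 3 of 25, 2 of 29 and 2 of 24. A peak cannot be wider than its transcript. Transcript length was not compared, so its part in these low shares was not tested.

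Zinc finger genes with a ZNF symbol formed the largest group and differed between all 3 lists. They mostly encode DNA-binding repressors whose finger arrays lie in a single long last exon. A broad stop codon peak was found in 194 of 348 in control (55.7%, 50.4 to 61.0), 84 of 305 with siRNA 1 (27.5%, 22.6 to 32.9) and 128 of 327 with siRNA 2 (39.1%, 33.8 to 44.7). Among the top 50% of peaks by score the shares were 52.1% (45.2 to 59.0), 38.6% (29.1 to 48.8) and 40.6% (32.3 to 49.3). The intervals overlap there and not in the full lists. They cover counting error over many of the same genes, and no difference between conditions was tested. Narrow stop codon peaks without a broad one were found in 66, 104 and 109 of the same genes. All 3 lists held a broad peak in 59 genes, control alone in 74 and both siRNA lists alone in 4. ZNF genes made up 79 of the 601 control-only regions (13.1%, 10.55 to 16.1) and 58 of the 983 in all lists (5.90%, 4.51 to 7.56). They made up 5 of the 164 broad with both siRNAs (3.05%, 1.00 to 6.97) and 8 of the 123 of siRNA 1 alone (interval 2.85 to 12.4%). Their share was 15.03% (11.3 to 19.4) for control with siRNA 2 and 13.7% (7.49 to 22.3) for control with siRNA 1. For siRNA 2 alone it was 11.4% (6.99 to 17.2). A high ZNF share was thus not particular to control-only regions.

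Individual ZNF genes showed the same spread. ZNF10 covered 2000 bases in control, 1000 with siRNA 1 and 1600 with siRNA 2, and ZNF12 2800, 2000 and 1000. ZNF131, among the strongest at percentile 98.1 of control, covered 2200, 1000 and 1600, while ZNF133 covered 1826, 1626 and 1826. ZNF197 had 4200 bases in control, with 2600 and 3000 bases in 2 peaks each with siRNA 1 and siRNA 2, and ZNF160 had 3200 against 800 and 1600. Of the 4 genes broad with both siRNAs alone, ZNF136, ZNF148 and ZNF440 had wider control peaks that reached the 5′ UTR, of 2800, 3200 and 3200 bases, and ZNF282 was the only one with a narrower control peak, at 800 bases.

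Over the 137 ZNF regions with 1 stop codon peak in each list, chosen without regard to width, the median was 1400 bases in control, 800 with siRNA 1 and 1000 with siRNA 2. Against control, the siRNA 1 peak was narrower by at least 200 bases in 62.0% and wider in 8.76%, and the siRNA 2 peak narrower in 51.8% and wider in 12.4%, beside 41.7% and 32.8% narrower over all 3162 regions. Both siRNA peaks were narrower in 63 of the 137 (46.0%), against 851 of the 3025 other regions (28.1%). With a control width of at least 1000 bases, 82.2% of 90 ZNF regions were narrower with siRNA 1 and 68.9% with siRNA 2, against 56.5% and 46.6% of 1302 other regions. These ZNF regions were also wider in control, at a mean of 1776 bases against 1440. The part of control width in the ZNF shares was not tested. The control peaks of ZNF genes reached farther at both ends, 5′ in 48.2% and 3′ in 51.1% against siRNA 1.

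ZNF members were wide for their strength. Their median width was 1800 bases in control, 1300 with siRNA 1 and 1400 with siRNA 2, against 1200 for other members in each list. Their median score percentiles were 53.1, 48.0 and 46.4, against 78.2, 80.0 and 77.2. At a control width of at least 1000 bases, lower strength went with narrower siRNA peaks. Among other genes of at least 1000 bases in control, siRNA 1 was narrower in 82.3% of 130 regions in the lower 50% of the list by score and in 53.6% of 1172 in the upper. ZNF genes showed 85.7% of 21 in the lower and 81.2% of 69 in the upper 50%. With siRNA 2 the shares were 62.3% and 44.9% for other genes and 76.2% and 66.7% for ZNF genes. The part of strength in the difference between ZNF and other genes was not tested beyond these values.

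Of control ZNF members, 33 of 199 (16.6%, 11.7 to 22.5) had no siRNA 1 peak and 10 (5.03%, 2.44 to 9.05) no siRNA 2 peak, beside 5.87% and 3.60% of all control members. Chromosome 19, which carries most clusters of these genes, held 47.2% of control ZNF members, 44.0% with siRNA 1 and 46.6% with siRNA 2. On that chromosome 52 one-to-one ZNF regions had medians of 1721, 933 and 1348 bases in control, siRNA 1 and siRNA 2, and 85 on other chromosomes 1200, 800 and 800. Finger arrays of different ZNF genes resemble each other, and the sources used here do not say how reads that match several of them were placed, so the borders of single ZNF peaks are uncertain.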

How the data were processed

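U2OS m6A-IP and input libraries of 3 conditions (1 of each per condition) had been turned by the authors into 1 peak list per condition. HISAT2 and build hg38 are named in the submitters' processing notes. No source used here gives the peak caller or the handling of replicates. Per the file headers, each peak has a deposited score of unstated definition, a deposited fold enrichment (a ratio) and a −log10 FDR, all the authors' values. Scores were ranked only within a list. Depth behind the peaks is unknown, since read counts were not used here.

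Members, gene lists and the rules for named genes were chosen with earlier results of these data known. Covered width was the sum of block sizes. On the minus strand, block sizes were reversed to match block starts, after which all block ends met the peak ends. Starts were raised by 1 base. Peaks of different lists counted as overlapping with at least 1 shared base on the same strand. The class of a counterpart was that of the widest overlapping peak. Named genes were the 10 widest and the 10 highest scoring regions of all lists, the 10 strongest control members without an siRNA peak, the 10 with the largest narrowing, the 10 strongest regions of both siRNA lists alone, the threshold cases, and up to 6 genes per gene list in alphabetical order; further names were taken from the full lists, so they were chosen after their values were seen. Of the 19 gene lists, those on KLF and SP, on SOX, FOX and HOX factors, on ubiquitin enzymes, TMEM genes, microRNA machinery, cadherins, and collagens and integrins are given in the closing section. RefSeq (GRCh38.p14) gave sequences and gene spans, with 93.5% of control, 94.0% of siRNA 1 and 93.3% of siRNA 2 member symbols found. The overlap code was tested on simulated peaks and gave 1886 of 1886 planted regions their planted class. Python 3.11.15, pandas 2.3.3 and scipy 1.17.1 were used. No p-value was computed. Alternatives were the width threshold, FDR, score cuts, the overlap rule, the annotation rule, joining of neighbouring peaks, genomic span and updated symbols.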

Additional observations from a re-analysis of the deposited data

How the results depend on the processing

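Control held the most broad stop codon peaks and siRNA 1 the fewest under each of the 11 alternatives. The overlap rule and updated symbols cannot change these counts, and joining peaks within 100 bases left them the same. The order of control and siRNA 1 among solute carriers turned in 5 of the 11 alternatives (800 bases, FDR, equal number of peaks, top 50%, genomic span). With a threshold of 800 bases siRNA 1 held 2125 members in 2047 genes, and 1574 regions were shared by all lists. Control members then overlapped members and any peak in 58.5% and 92.3% (siRNA 1) and 68.4% and 94.5% (siRNA 2), with 3.29% in neither and narrow counterparts in 17.6% and 13.7%. Member overlap was 81.5% and 86.2% for siRNA 1 with control and siRNA 2, and 73.3% for siRNA 2 with siRNA 1, and ZNF shares were 64.1%, 39.7% and 53.5%. At 1200 bases the same values were 906 members, 895 genes, 614 regions, 47.8% and 95.4%, 61.8% and 97.2%, 1.38%, 26.7% and 20.5%, 76.3% and 80.7%, and 65.0%, with 108 regions in both siRNA lists alone and ZNF shares of 18.7% and 30.9% with the siRNAs. With FDR under 0.01, overlap with any peak was 90.8% and 93.9%, and 3.91% had none. In the top 50% by score these were 81.2%, 86.1% and 11.5%, siRNA 2 members overlapped siRNA 1 members in 72.9%, and narrow counterparts were 15.5% and 13.1%. The ZNF share was then 38.6% with siRNA 1 beside 40.6% with siRNA 2, so that the siRNA lists lay closer together. Median score percentiles were 81.7 (control) and 81.9 (siRNA 2). With 50% of each peak in common, overlap with any peak was 77.5% and 85.6%, none 11.8%, control with siRNA 2 members 63.6%, siRNA 1 and siRNA 2 with control members 76.4% and 77.7%, and narrow counterparts 15.6% and 14.1%. By genomic span the lists held 3384, 2380 and 2702 members. Ranked by fold, median percentiles were 82.6 (control) and 82.0 (siRNA 2). Joining peaks within 200 bases, chosen after seeing the data, gave 2053, 1462 and 1710 members. No paired analysis was possible because each condition has 1 peak list and no test was made. Read depth behind the peaks is unknown, and its part in missing or narrower peaks was not tested.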

Other observations

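Of KLF and SP factors with a peak, 9 of 21 held a broad stop codon peak in control (42.9%, 21.8 to 66.0), 5 of 19 with siRNA 1 (26.3%) and 7 of 20 with siRNA 2 (35.0%). KLF11, KLF13 and SP1 had 1600, 1600 and 1200 bases in every list, and KLF16 had 600 bases in control and 1200 in both siRNA lists. SOX, FOX and HOX factors stood at 13 of 50, 13 of 45 and 14 of 48. FOXK1 covered 2200, 2200 and 2400 bases, and FOXB1 2000, 1000 and 1200. RNF and TRIM ubiquitin ligases stood at 17 of 81, 12 of 76 and 17 of 76, and genes with a USP symbol, among which USP6NL encodes no deubiquitinase, at 11 of 33, 6 of 33 and 10 of 33. USP1 covered 1800 bases in control and 600 in both siRNA lists. TMEM genes stood at 22 of 100, 20 of 96 and 22 of 96, and TMEM184A covered 1000 bases in control, 2000 with siRNA 1 and 5000 with siRNA 2. MicroRNA machinery held 1 of 10, 0 of 10 and 1 of 9, and cadherins of the PCDH and CDH families 3 of 4, 3 of 6 and 2 of 6. Collagens and integrins stood at 3 of 25, 4 of 22 and 4 of 23, where COL1A1 and COL5A1 were broad with both siRNAs alone, at 1000 bases against 400 and 800 in control.

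Members of 4 further genes held GGACT in the readable windows, DIO2 in control and siRNA 2, CACNB2 and NFYA in control alone, and FBXL22 with siRNA 2 alone.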
